A study of Mus musculus with 12 samples.

Results

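The genes that encode the receptors for serotonin, dopamine, noradrenaline, adrenaline and acetylcholine were followed across the hippocampus of 12 mice. They were chosen by symbol: Htr for serotonin, Drd for dopamine, Adra and Adrb for the adrenergic receptors, Chrm for the muscarinic and Chrn for the nicotinic acetylcholine receptors. The rule itself uses no measured values, though it was set with earlier results of these data known. The rule found 49 genes of the 52636 in the deposited tables, namely 14 serotonin, 5 dopamine, 9 adrenergic, 5 muscarinic and 16 nicotinic receptor genes. Of these 49, 31 reached a mean of 1 TPM over the 12 libraries. TPM is a transcript abundance that is divided by transcript length and brought to one total per library, so it can be compared between genes.

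The mice were wild-type C57BL6/J animals aged 18 weeks, with no transgene or drug named in the labels. In fear extinction, an animal that has learned to fear a cue or place gradually stops responding to it after repeated harmless exposure. The mice fell into 4 groups of 3, males with a high extinction level, males with a low extinction level, females with a high extinction level and females with a low extinction level. Each library was made from the hippocampus of a different mouse, the spread between libraries therefore includes that between animals, and the labels do not say how the extinction level was scored. Differences below are low minus high extinction.

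Noradrenaline, serotonin, dopamine and acetylcholine reach the hippocampus mainly along fibres whose cell bodies lie elsewhere, in the locus coeruleus, the raphe nuclei, the midbrain and the basal forebrain. Their receptors sit on hippocampal neurons and glia. Most are G protein-coupled receptors: those coupled to Gs raise cyclic AMP, those coupled to Gi lower it and open potassium channels, and those coupled to Gq activate phospholipase C. The nicotinic receptors and the serotonin receptor subunits encoded by Htr3a and Htr3b form ion channels that open when the transmitter binds.

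The labelled tissue was checked with 14 markers of hippocampal excitatory neurons, all of which had a mean of 1 TPM or more, with a summed level between 730.1 and 929.0 TPM. Several genes that define the transmitter-releasing cells had means under 1 TPM. Tph2, which makes serotonin in raphe neurons, had a mean of 0.746 TPM, Th, the first enzyme on the way to dopamine, 0.493 TPM, Dbh, which turns dopamine into noradrenaline, 0.236 TPM, the serotonin transporter gene Slc6a4 0.091 TPM, and Chat, which makes acetylcholine, 0.072 TPM. In 1 library, high-extinction female replicate 2, Tph2, Th, Slc6a4 and Chat had their highest values, 1.33, 1.03, 0.380 and 0.647 TPM. Ddc, an enzyme shared by serotonin and dopamine synthesis, averaged 7.47 TPM and the vesicular monoamine transporter gene Slc18a2 4.95 TPM. Sums of markers of neighbouring tissue varied widely between libraries, above all those of the choroid plexus, from 148.7 to 4447 TPM. Read depth per library is unknown. In these whole-tissue samples fewer cells of a type and less RNA per cell cannot be told apart.

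The 49 genes spread over a wide range of abundance. There were 11 at a mean of 10 TPM or more, 20 between 1 and 10 TPM, 10 between 0.1 and 1 TPM and 8 under 0.1 TPM. Together they summed to a mean of 421.0 TPM, of which 43.5% came from the 3 most abundant, Chrm1, Adra1d and Chrm3. All 3 encode receptors coupled to Gq. As a class the 9 Gq-coupled receptor genes held 52.9% of the summed level, from 51.1% to 54.9% in single libraries, the 13 Gi-coupled genes 17.7%, the 18 channel subunit genes 17.5% and the 8 Gs-coupled genes 10.8%. Htr5b, given no class here, held 1.13%. By transmitter, the muscarinic genes led with 37.0%, followed by adrenergic with 22.5%, serotonin with 21.4%, nicotinic with 15.6% and dopamine receptor genes with 3.43%.

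**Figure D1:**
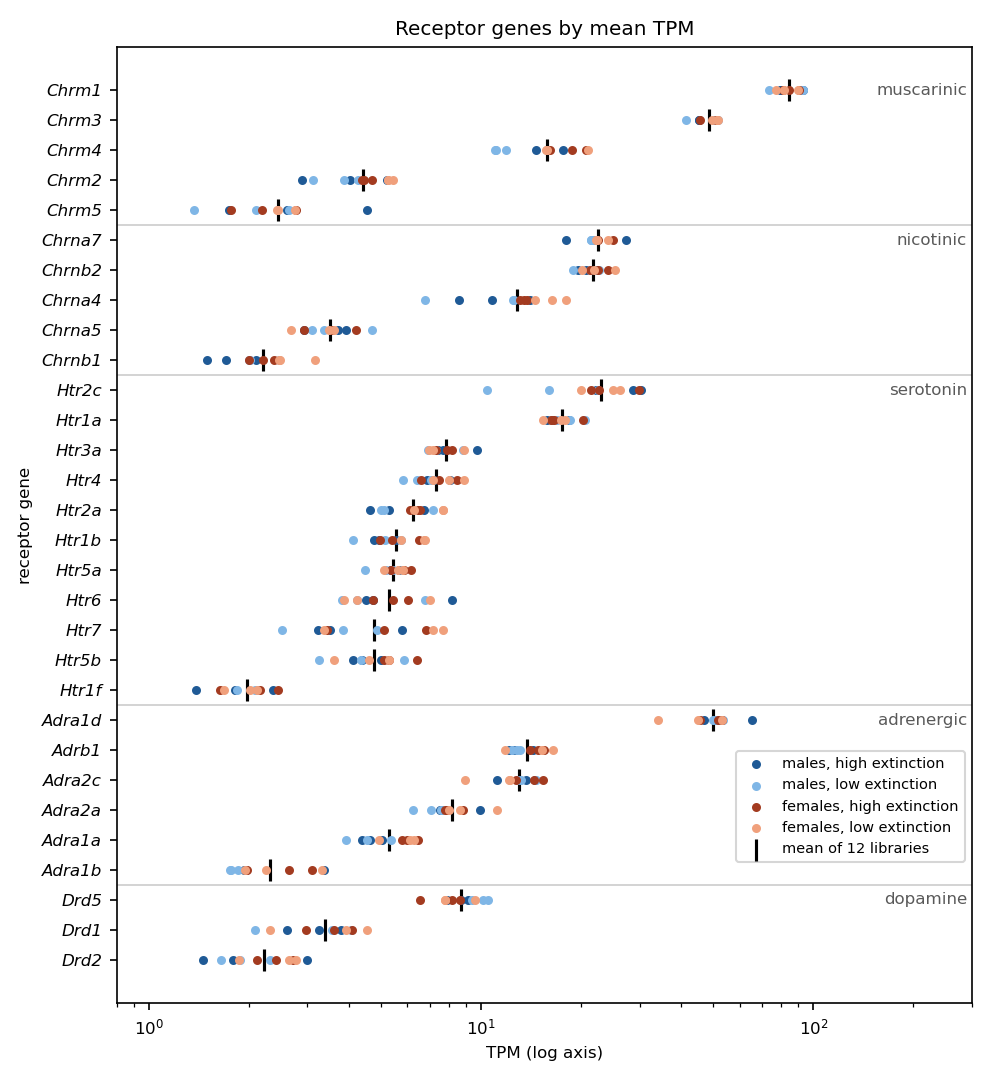
TPM of the 30 receptor genes with the highest means, on a log axis, grouped by family. Each point is 1 library, coloured by sex and extinction level, and the black bar is the mean of 12 libraries. Chrm1 stands highest at a mean of 84.5 TPM and Htr1f lowest at 1.97 TPM, and the points of the 4 groups are mixed for most genes.

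The muscarinic genes were the family in which all 5 members reached 1 TPM. Chrm1, the main muscarinic receptor of forebrain principal neurons, was the most abundant of the 49 at 84.5 TPM ± 6.78 (SD, n = 12), from 73.3 to 93.2 TPM. Chrm3, also coupled to Gq, had 48.7 TPM ± 3.39 and the smallest relative spread of the 31 genes, with a coefficient of variation (SD over mean) of 6.97%. Chrm4 followed with 15.8 TPM ± 3.37, Chrm2 with 4.40 TPM ± 0.831 and Chrm5 with 2.44 TPM ± 0.792. Chrm2 and Chrm4 encode the Gi-coupled members, of which the first is known as a presynaptic brake on acetylcholine release.

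Among the 16 nicotinic subunit genes only 5 reached 1 TPM. Chrna7, whose product forms channels of a single kind of subunit, had 22.5 TPM ± 2.24, and Chrnb2 had 21.7 TPM ± 1.84, a pair whose library ranges overlapped (18.0 to 27.3 and 19.0 to 25.3 TPM). Chrna4, the usual partner of Chrnb2 in brain, lay at 12.9 TPM ± 3.07 and Chrna5, an accessory subunit, at 3.51 TPM ± 0.580. The fifth was Chrnb1, known as a muscle subunit, at 2.21 TPM ± 0.431. Its partners at the muscle endplate were lower: Chrna1 had a mean of 0.613 TPM, Chrne 0.256 TPM, and Chrnd and Chrng were listed at 0 in every library. Of the 8 skeletal muscle markers, 2 reached 1 TPM and 7 were at 0 in at least 1 library, with a summed level between 5.2 and 9.1 TPM.

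The subunits typical of the medial habenula and of autonomic ganglia were scarce. Chrna3 averaged 0.628 TPM, from 0.384 to 1.14 TPM, Chrnb3 0.260 TPM and Chrnb4 0.245 TPM, with Chrnb4 listed at 0 in 1 library. Chrna2, a subunit known from a class of hippocampal interneurons, came closest to the threshold from below at 0.837 TPM. Chrna6, Chrna9 and Chrna10 averaged under 0.1 TPM and were listed at 0 in 3, 8 and 11 of the 12 libraries.

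Among the 14 serotonin receptor genes 11 reached 1 TPM. Htr2c, coupled to Gq and abundant in the choroid plexus as well as in neurons, had 22.9 TPM ± 5.75, and Htr1a, a Gi-coupled receptor of pyramidal and granule cells, 17.5 TPM ± 1.66. The other 9 averaged between 1.97 and 7.86 TPM: Htr3a, a channel subunit of interneurons, 7.86 TPM, the Gs-coupled Htr4, Htr6 and Htr7 7.34, 5.30 and 4.77 TPM, Htr2a 6.22 TPM, Htr1b 5.53 TPM, Htr5a 5.45 TPM, Htr5b 4.77 TPM and Htr1f 1.97 TPM. Htr7 had the largest relative spread of the 31 genes, a coefficient of variation of 36.4%, with single libraries from 2.52 to 7.66 TPM and the low and high libraries mixed in both sexes. Htr2b averaged 0.443 TPM and Htr1d 0.248 TPM, and Htr3b, which can only form a channel together with Htr3a, was listed at 0 in every library.

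Adra1d dominated the adrenergic genes at 49.97 TPM ± 7.32, second of the 49, with 7 of the 9 reaching 1 TPM. The other Gq-coupled genes Adra1a and Adra1b averaged 5.28 and 2.32 TPM. The Gi-coupled Adra2c and Adra2a, whose products act both as brakes on noradrenaline release and on receiving neurons, averaged 13.0 TPM ± 1.77 and 8.18 TPM ± 1.31. Adrb1, which encodes a Gs-coupled receptor for noradrenaline, averaged 13.7 TPM ± 1.49. Adrb3 and Adra2b averaged 0.677 and 0.129 TPM.

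The dopamine receptor genes were the smallest share. Drd5, the Gs-coupled receptor known as the leading one of its class in hippocampus, had 8.68 TPM ± 1.12, above Drd1 at 3.40 TPM ± 0.760 and Drd2 at 2.22 TPM ± 0.498, and no library of Drd1 or Drd2 reached the lowest of Drd5 (6.54 TPM). Drd3 and Drd4 averaged 0.093 and 0.062 TPM. All 10 markers of the striatum, where Drd1 and Drd2 are abundant, reached 1 TPM, and their summed level overlapped between low and high extinction in both sexes (152.5 to 220.5 TPM).

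Gene structure, which the symbol rule did not use, differed between the members. In the GENCODE M21 annotation of GRCm38, 16 of the 31 G protein-coupled receptor genes carry their protein on 1 coding exon, among them all 5 muscarinic genes, while the 18 channel subunit genes have between 5 and 12 coding exons. Several nicotinic genes lie next to each other: Chrna5, Chrna3 and Chrnb4 on chromosome 9, Chrnb3 and Chrna6 on chromosome 8, and Chrnd and Chrng on chromosome 1. In the first of these clusters Chrna5 averaged 3.51 TPM beside Chrna3 and Chrnb4 under 1 TPM. Another annotated gene overlaps 18 of the 49, for example Adar, on the opposite strand of Chrnb2. Overlap was taken over whole gene spans, introns included, and some neighbours, such as that of Chrna7, lie on the same strand. How counting treated the strand is not given in sources used here, so for those 18 reads of the neighbour may be included.

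The sequences before the start sites of Chrm4, Htr2c, Adra2c and Chrna4, all named below for their differences, were considered. The 2 shown, of Chrm4 and Htr2c, lie outside the annotated gene. Those of Adra2c, the member called in females, and of Chrna4 overlap the annotated gene and were left out. Each run is the 250 bases before the RefSeq start on GRCm38.p6, plus strand, read 5′ to 3′ at chr2:91921939-91922188 for Chrm4 and at chrX:146962263-146962512 for Htr2c. Capitals mark the GC box GGGCGG or its reverse complement CCGCCC, a motif bound by factors of the Sp family.
Chrm4: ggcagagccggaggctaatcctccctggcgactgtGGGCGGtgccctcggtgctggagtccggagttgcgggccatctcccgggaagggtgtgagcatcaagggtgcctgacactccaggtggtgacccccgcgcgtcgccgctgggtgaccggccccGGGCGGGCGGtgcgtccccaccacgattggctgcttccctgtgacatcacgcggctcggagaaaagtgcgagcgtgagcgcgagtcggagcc
Htr2c: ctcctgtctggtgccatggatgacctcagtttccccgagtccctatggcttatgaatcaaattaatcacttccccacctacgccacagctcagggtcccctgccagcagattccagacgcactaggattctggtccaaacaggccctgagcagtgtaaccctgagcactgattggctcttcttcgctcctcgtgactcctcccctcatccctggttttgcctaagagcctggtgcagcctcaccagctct
The Chrm4 stretch is 70.0% G and C and has 2 separate runs of capitals, the second made of overlapping copies of the motif, and the Htr2c stretch is 55.6% G and C with none. RefSeq promoters were found for 37 of the 49 genes, 42 in all because some genes have several. On either strand the GC box was present in 47.6% of these 42 and in 32.7% of all 32851 promoters of the same length, the CRE core TGACG in 14.3% against 17.8%, the TATA motif TATAA in 11.9% against 22.8%, and the E-box CACGTG in 7.14% against 6.02%. These matches describe letters and are not binding sites, and no binding was measured in these libraries.

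The first comparison asked which receptor genes differed with the extinction level among the males. In the authors' deposited table for males 1 member of the 40 with an adjusted p passed 0.05, the muscarinic receptor gene Chrm4, against 0.504% of all genes with an adjusted p in that table. Chrm4 (ENSMUSG00000040495.4, annotated at chr2:91927249-91928688 on the plus strand of GRCm38, with the coding part only) had 14.6, 17.7 and 15.8 TPM in the high-extinction males and 11.9, 11.0 and 11.1 TPM in males with low extinction. All 3 low libraries lay below all 3 high ones. It was 1.39-fold lower at low extinction by the authors' deposited table, a log2 change of -0.47 with a standard error of 0.125 and an adjusted p of 0.0399.

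On the TPM values limma, which fits all genes together, gave Chrm4 a log2(TPM + 1) change of -0.46 ± 0.099 (SE) in males, the smallest p of the 31 at 0.00196, with a Benjamini-Hochberg adjusted p of 0.696. The receptor is Gi-coupled and is known to restrain cyclic AMP signalling in principal cells and acetylcholine release from terminals. Markers of the ependyma, which lines the ventricle, had summed levels of 69.4 to 83.8 TPM in high-extinction and 25.8 to 56.3 TPM in low-extinction males, and meningeal fibroblast markers 704.0 to 1017 and 331.8 to 579.1 TPM, both without overlap and with every listed marker (11 and 12) at 1 TPM or more on average. Smooth muscle markers, of which 4 of 5 reached 1 TPM, also separated, at 26.6 to 44.7 against 22.6 to 26.2 TPM. In the meningeal list Ptgds alone averaged 686.5 TPM over the 12 libraries. Dcn and Igf2 of that list overlapped between the male groups, while its mean log2(TPM + 1) did not. The part of these 3 lists in the Chrm4 difference was not tested. With the choroid plexus markers as a covariate the Chrm4 change was -0.41.

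In females the levels of Chrm4 overlapped, with 20.6, 18.7 and 16.1 TPM at high and 15.8, 15.7 and 21.01 TPM at low extinction. Its log2 change in the authors' deposited table for females was -0.18, with a standard error of 0.127 and an adjusted p of 0.685. The male change minus the female change was -0.38 ± 0.176 by limma (interaction, unadjusted p 0.0536, adjusted p 0.634), so a difference between the sexes did not pass. Averaged over both sexes limma gave -0.27 ± 0.088, with an unadjusted p of 0.00969 and an adjusted p of 0.466.

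**Figure D2:**
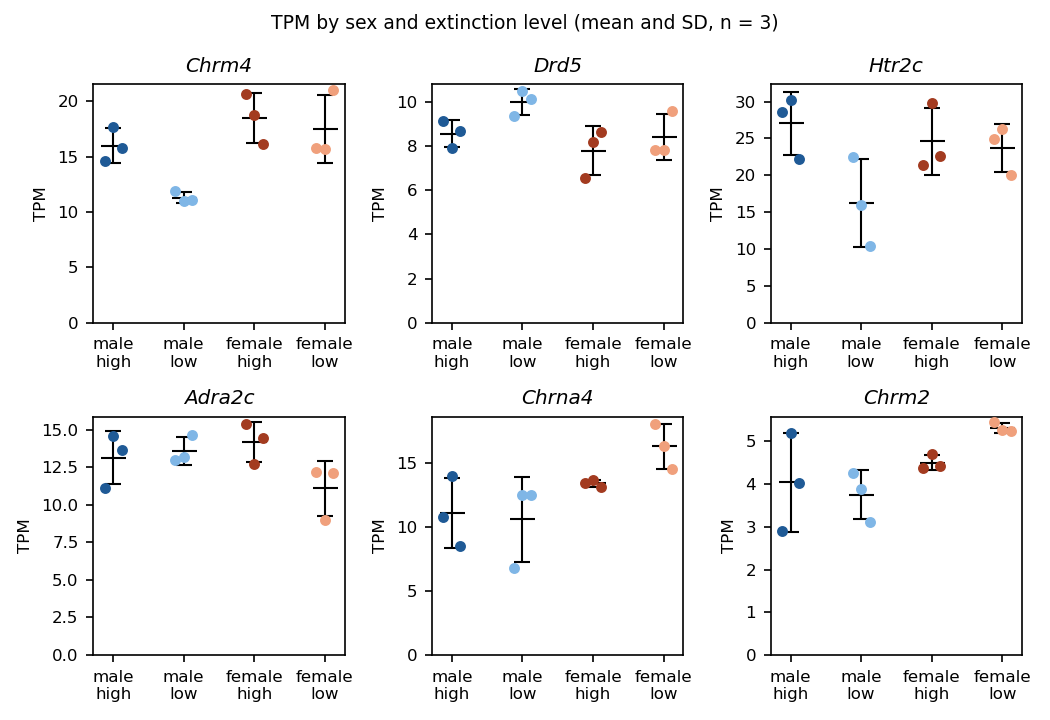
TPM of 6 receptor genes in each of the 4 groups. Points are libraries, long bars the mean and short bars the mean plus and minus 1 SD (n = 3), with axes from 0. The low-extinction males stand below the high-extinction males for Chrm4 (11.3 against 16.0 TPM on average) and above them for Drd5, and the low-extinction females below the high-extinction females for Adra2c and above them for Chrna4 and Chrm2.

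Htr2c had the largest fold of the 31 members in the authors' deposited table for males, a level 1.71-fold lower with low extinction that did not pass. Its levels were 28.6, 30.2 and 22.2 TPM in high-extinction males and 22.4, 16.0 and 10.4 TPM in low-extinction males. The highest low library lay just above the lowest high library. The authors' log2 change was -0.78 with a standard error of 0.366 and an adjusted p of 0.580, and limma gave -0.75 ± 0.251 (unadjusted p 0.0192, adjusted p 0.759). In females the libraries mixed, with 21.4, 29.8 and 22.6 TPM at high and 24.9, 26.3 and 19.99 TPM at low extinction, and the authors' deposited table had -0.11 with an adjusted p of 0.935. By limma the average over the sexes was -0.40 ± 0.163 (adjusted p 0.584) and the interaction -0.70 ± 0.326 (adjusted p 0.634).

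The level of Htr2c followed that of the choroid plexus markers, the tissue that secretes cerebrospinal fluid and borders the hippocampus. Over the 12 libraries Pearson's r between log2(TPM + 1) of Htr2c and the mean log2(TPM + 1) of the 20 markers was 0.787 (permutation p 0.00058, adjusted over 3 such relations 0.00174) and Spearman's rho 0.923 (permutation p 7e-05, adjusted 0.00021). Without the 2 libraries farthest from the median of the markers r was 0.838. Within the 6 males r was 0.893 (exact p 0.0181, adjusted 0.0542) and within the 6 females 0.769 (exact p 0.0847, adjusted 0.127), neither of which passed after adjustment. Ttr, the most abundant choroid plexus transcript, was at 2874, 3300 and 299 TPM in the high-extinction males, in the same order of libraries as above, and at 906, 41.3 and 49.6 TPM in those with low extinction. In females it was at 12.6, 1166 and 1076 TPM at high and 690, 997 and 80.6 TPM at low extinction. With the markers as a covariate the log2 change of Htr2c in males was -0.26 instead of -0.75. Of the 20 markers 19 reached 1 TPM, and 1 was at 0 in a library.

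**Figure D3:**
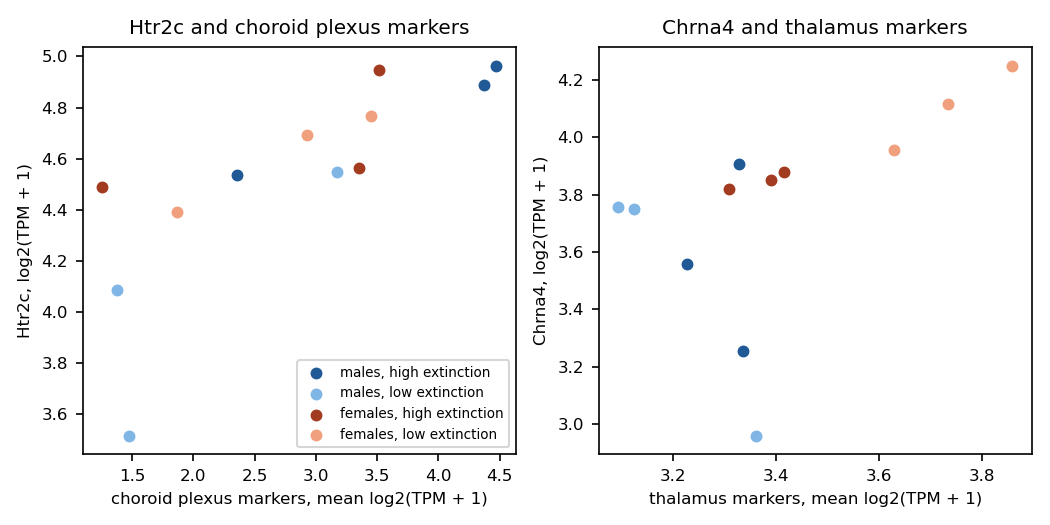
Left, log2(TPM + 1) of Htr2c against the mean log2(TPM + 1) of 20 choroid plexus markers, and right, Chrna4 against 16 thalamus markers. Each point is 1 of 12 libraries. Htr2c rises with its markers in both sexes (r 0.787), whereas Chrna4 rises with the thalamus markers in females (r 0.970) and does not in males (r -0.584). In females Chrna4 and the thalamus markers both separate low from high extinction.

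Drd5 was the single member of the 31 with every low-extinction male library above every high one. Its levels were 9.11, 7.88 and 8.67 TPM at high and 9.35, 10.5 and 10.1 TPM at low extinction, and limma gave 0.20 ± 0.098 (unadjusted p 0.0760, adjusted p 0.834). The gap between the groups was narrow, and the authors' deposited table had a log2 change of 0.22 with an adjusted p of 0.832. In females Drd5 overlapped, with 6.54, 8.18 and 8.62 TPM at high and 7.80, 7.80 and 9.58 TPM at low extinction. Adra1b joined Chrm4 as the other member with no overlap below, at 1.96, 3.36 and 1.93 TPM in high and 1.75, 1.77 and 1.86 TPM in low-extinction males, with an adjusted p of 0.825 in the authors' deposited table. Such a complete separation in males was seen upward in 4.20% and downward in 7.28% of all 18303 genes tested, against 1 and 2 of the 31 members. After each library was centred on its median gene, Drd5 and Adra1b overlapped, Chrm4 was separated below and Chrnb1 above, 1 member each against 4.96% of all genes below and 7.79% above.

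Across all 31 members limma called 0 in males, where it called 0% of all genes. Without adjustment 2 of 31 had a p under 0.05, Chrm4 and Htr2c, against 6.29% of all genes. The median log2(TPM + 1) change of the 31 was -0.03 and that of all genes tested -0.02, with 11 of 31 members and 43.1% of all genes higher at low extinction. After median centring, which shifts all genes of a library alike, 18 of 31 members and 55.4% of all genes were higher. Of the 31, 13 were higher at low extinction and 18 were lower by the authors' deposited table for males, at a median log2 change of -0.03. Of all genes at 1 TPM or more with an adjusted p in that table, 47.3% were higher with low extinction, at a median of -0.008. There 26 of the 31 differed by less than 1.2-fold, a share that was not counted over all genes. Of the 40 members with an adjusted p in that table, which include some below 1 TPM, 4 had an unadjusted p under 0.05, against 7.61% of all genes.

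Below 1 TPM, Chrnb4 had the next smallest adjusted p in the authors' deposited table for males and was picked out after its values were seen. It stood at 0.810, 0.647 and 0.114 TPM in high-extinction males and 0.129, 0.089 and 0.071 TPM in low-extinction males, so 1 low library lay above the lowest high one. The authors' log2 change was -2.37 with a standard error of 0.650 and an adjusted p of 0.0510, on the authors' mean of 25.8 normalized counts. At a looser adjusted p of 0.10 that table calls 2 members, Chrm4 and Chrnb4, of 40, against 0.863% of all genes. In females the levels were 0.049, 0.428 and 0.130 TPM at high and 0.389, 0.084 and 0 TPM at low extinction. Chrna3, its neighbour on chromosome 9 and partner in habenular receptors, had a log2 change of 0.38 with a standard error of 0.352 and an adjusted p of 0.977 in the authors' deposited table for males. Over the 12 libraries Chrna3 gave r of -0.35 (permutation p 0.241) and rho of -0.38 (permutation p 0.217) with the mean of 8 habenula markers, -0.47 without the 2 farthest libraries, -0.55 in males (exact p 0.253) and -0.15 in females (exact p 0.743). No relation with those markers was detected, and Chrna3 itself averaged under 1 TPM. Of the 8 markers 6 reached 1 TPM on average and 2 were at 0 in at least 1 library, which limits what these values can show.

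In females the authors' deposited table also called 1 member, of the 34 with an adjusted p, against 0.857% of all genes with an adjusted p. This was Adra2c, which encodes a Gi-coupled receptor for noradrenaline. The gene (ENSMUSG00000045318.6, chr5:35278319-35281763 on the plus strand) had 15.4, 12.7 and 14.5 TPM in high-extinction and 12.2, 8.96 and 12.1 TPM in low-extinction females. All 3 low libraries lay below the high ones, with a narrow gap. It was 1.36-fold lower at low extinction by the authors' deposited table, a log2 change of -0.44 with a standard error of 0.117 and an adjusted p of 0.0249, while limma gave -0.34 ± 0.135 with an unadjusted p of 0.0428 and an adjusted p of 0.561.

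In males Adra2c overlapped, with 11.1, 14.5 and 13.7 TPM at high and 12.9, 13.1 and 14.6 TPM at low extinction. The authors' deposited table for males had a log2 change of 0.07 with an adjusted p of 0.999. Subtracting the authors' female change from their male change gave 0.52 with a standard error of 0.155, an unadjusted p of 0.000864 and an adjusted p of 0.130, so a difference between the sexes did not pass, as it did for 0.409% of all genes. By limma the interaction was 0.39 ± 0.185 (adjusted p 0.639). The related Adra2a differed in the authors' deposited tables by -0.23 in males (adjusted p 0.730) and 0.09 in females (adjusted p 0.899).

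**Figure D4:**
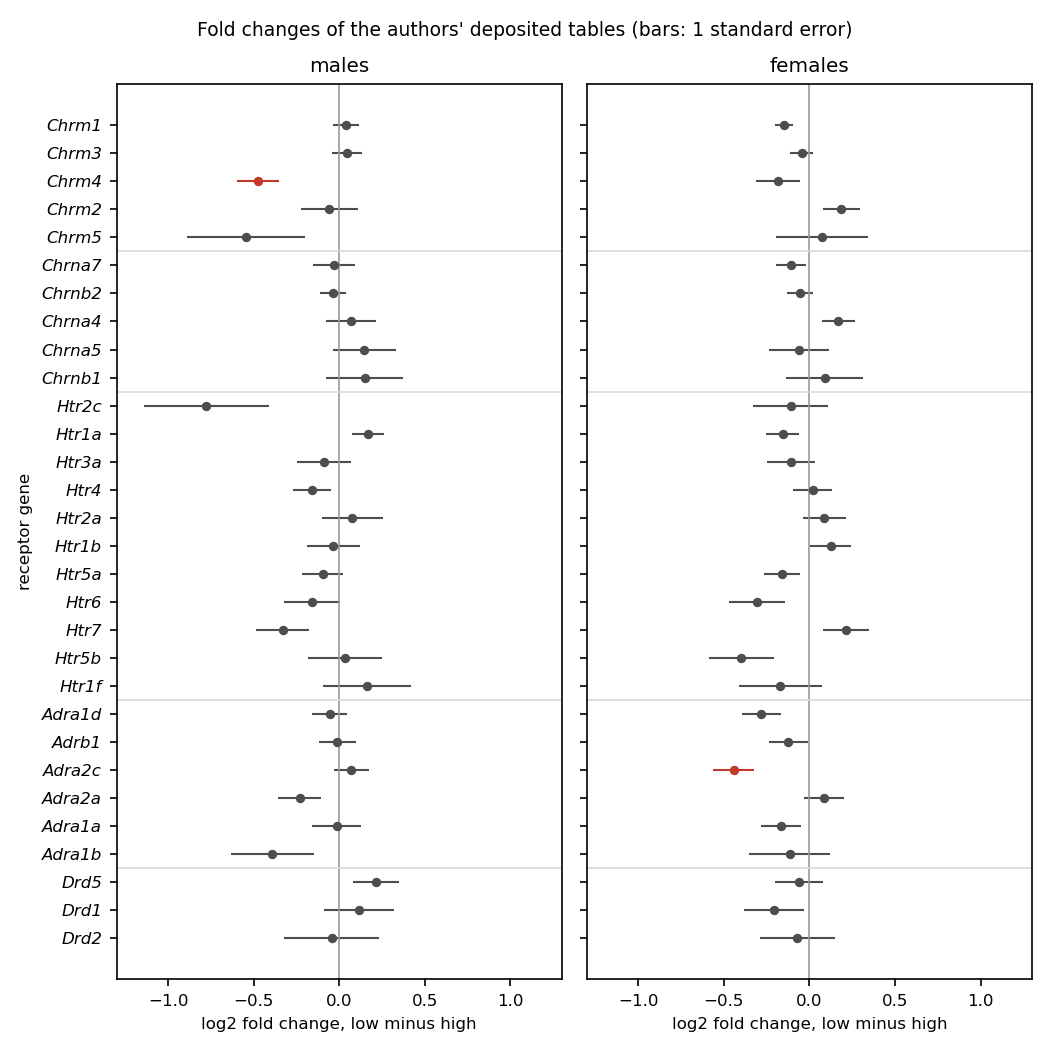
Log2 fold changes, low minus high extinction, of the 30 receptor genes with the highest mean TPM in the authors' deposited tables, males at left and females at right. Bars are 1 standard error, grey lines part the families, and red marks an adjusted p under 0.05. Red falls on Chrm4 in males (-0.47) and on Adra2c in females (-0.44), and most other points lie near 0.

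The acetylcholine receptor genes Chrna4, Chrnb1 and Chrm2 had every low-extinction female library above every high one. Chrna4 (chr2:181018380-181043546, minus strand) was at 13.4, 13.7 and 13.1 TPM at high and 18.0, 16.3 and 14.5 TPM at low extinction, with a limma change of 0.26 ± 0.092 (unadjusted p 0.0272, adjusted p 0.541). Chrm2 was at 4.37, 4.71 and 4.43 TPM at high and 5.45, 5.25 and 5.23 TPM at low extinction, a limma change of 0.20 ± 0.089 (unadjusted p 0.0611, adjusted p 0.574). Chrnb1 was at 2.37, 2.21 and 2.00 TPM at high and 3.17, 2.46 and 2.49 TPM at low extinction. None of the 3 passed, and their adjusted p in the authors' deposited table for females were 0.585, 0.586 and 0.954.

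In males these 3 genes did not separate. Chrna4 was at 10.8, 14.0 and 8.55 TPM at high and 6.78, 12.5 and 12.5 TPM at low extinction, Chrm2 at 2.90, 5.20 and 4.02 against 4.25, 3.87 and 3.12 TPM, and Chrnb1 at 1.71, 2.10 and 1.50 against 2.00, 2.46 and 2.02 TPM. Averaged over the sexes Chrnb1 had a limma change of 0.20 ± 0.091 (unadjusted p 0.0471, adjusted p 0.644). Of all 18668 genes tested in females 14.3% separated upward and 1.98% downward, against 3 and 1 of the 31 members. After median centring these shares were 6.09% and 8.27%, against 1 member each, Chrm2 above and Adra2c below, and Chrna4 and Chrnb1 overlapped.

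Chrna4 is known to be abundant in the thalamus, and the mean of 16 thalamus markers, all at 1 TPM or more on average, moved with it in females. Single markers did not all separate, and Tcf7l2, Slc17a6 and Adarb1 were among those that overlapped between low- and high-extinction females. The summed level of the 16 ran from 204.9 to 234.2 TPM in the high-extinction and from 271.6 to 314.2 TPM in the low-extinction females, without overlap. In the males it ran from 203.0 to 260.5 and 173.8 to 222.1 TPM. In a relation added after the values were seen, r between Chrna4 and the mean of these markers was 0.523 over the 12 libraries (permutation p 0.0780, adjusted 0.117; rho 0.671, permutation p 0.0203, adjusted 0.0305), 0.970 within the 6 females (exact p 0.00139, adjusted 0.00417) and -0.584 within the 6 males (exact p 0.214). Chrna4 and the markers each separated low- from high-extinction females, which alone favours a high r within the 6 females. The p there does not allow for this or for the choice of Chrna4 from the same values. It is therefore not read as a test passed. Without the 2 libraries farthest from the median, both of low-extinction females, r over the others was 0.135 (rho 0.430). With each sex's mean taken off r was 0.120 (rho 0.189), and after median centring it was 0.360. The r over all libraries was thus lower in each of these settings. Because r had opposite signs in females and males, these values do not show what the relation over all libraries rests on, which was not tested. With the markers as a covariate the limma change of Chrna4 in females was -0.16 ± 0.199 instead of 0.26. The mean log2(TPM + 1) of the markers itself separated the female groups, at 3.31 to 3.42 in high and 3.63 to 3.86 in low extinction. This fit therefore cannot part the markers from the extinction level. It also moved the members in general, with 21 of 31 higher at low extinction instead of 12. Summed markers of meningeal fibroblasts were likewise higher in every low-extinction female library, at 606.5 to 893.7 in high against 947.7 to 1533 TPM in low extinction. So were those of smooth muscle, at 21.6 to 32.3 against 39.8 to 61.5 TPM, and of endothelium and pericytes, at 258.8 to 295.8 against 300.9 to 316.6 TPM. All 12 genes of the first and of the last list were at 1 TPM or more on average. In the first list Ptgds alone averaged 686.5 TPM over the 12 libraries. Dcn and Igf2 of that list overlapped between the female groups, while its mean log2(TPM + 1) did not. By the mean log2(TPM + 1), however, the endothelium and pericyte list overlapped, with high-extinction replicate 1 at 4.18 and low-extinction replicate 1 at 4.17. The part of these 3 lists in the differences was not tested.

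Over the 31 members limma called 0 in females, where it called 0.0107% of all genes. Without adjustment 2 of 31, Chrna4 and Adra2c, had a p under 0.05, against 8.83% of all genes. The median log2(TPM + 1) change of the 31 was -0.02 and that of all genes 0.06, with 12 of 31 members and 69.1% of all genes higher at low extinction. After median centring these were 10 of 31 and 47.0%. By the authors' deposited table for females 10 of the 31 were higher with low and 21 with high extinction, at a median log2 change of -0.11. Of all genes at 1 TPM or more with an adjusted p in that table, 44.1% were higher with low extinction, at a median of -0.02. There 27 of the 31 differed by less than 1.2-fold, a share that was not counted over all genes. Of the 34 members with an adjusted p, 4 had an unadjusted p under 0.05, against 9.95% of all genes.

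Among the other abundant members no difference passed. Chrm1 averaged 84.2 TPM ± 7.72 (SD, n = 3) in high and 85.8 TPM ± 10.9 in low-extinction males, and 85.4 TPM ± 4.88 and 82.8 TPM ± 6.42 in females. Its log2 change in the authors' deposited tables was 0.04 in males and -0.15 in females (adjusted p 0.999 and 0.201). Adra1d averaged 54.3 TPM ± 9.88 and 51.5 TPM ± 1.76 in males and 50.1 TPM ± 3.98 and 43.98 TPM ± 9.59 in females, with the lowest library of all, 34.02 TPM, in a low-extinction female and an adjusted p of 0.302 in the authors' deposited table for females. Chrm3, Chrna7, Chrnb2 and Adrb1 had log2 changes between -0.12 and 0.05 in the authors' deposited tables of both sexes. Htr1a, the receptor of principal cells, had 0.17 in males and -0.16 in females there, with adjusted p of 0.757 and 0.609.

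Averaged over the sexes limma called 0 of the 31, as of all genes (0%), and 3 had an unadjusted p under 0.05, Chrm4, Htr2c and Chrnb1, against 7.70% of all genes. The median change of the 31 was -0.02 and that of all genes 0.02, with 11 of 31 members and 57.8% of all genes higher at low extinction. For the interaction limma again called 0 of 31, against 0.00541% of all genes, and 0 had an unadjusted p under 0.05, against 7.92% of all genes. The smallest unadjusted p there were those of Chrm4, Htr2c and Adra2c, given above. No member separated in both sexes. Of all genes tested, 11.5% separated in males and 16.3% in females in either direction. The share that did so in both sexes was not counted, so this absence is not read as a trait of the receptor genes.

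The genes that make, clear or relay these transmitters were tested beside them. Of 103 genes in 6 lists of transmitter handling, G protein subunits, effectors, desensitisation and nicotinic chaperones, limma called 0 in every comparison. Of those with an adjusted p in the authors' deposited tables, 0 of 97 passed in males and 1 of 89 in females, a share of 1.12% against 0.857% of all genes. It was Plcb4, a phospholipase C that Gq activates. Plcb4 was at 16.6, 15.2 and 12.8 TPM in high and 20.3, 18.9 and 18.3 TPM in low-extinction females, without overlap, and in the authors' deposited table for females low extinction stood 1.32-fold higher with an adjusted p of 0.0268. In males its levels overlapped, with 10.5, 13.7 and 12.0 TPM at high and 12.7, 10.9 and 12.8 TPM at low extinction. Plcb4 is also known from the thalamus. The summed markers of thalamus, meningeal fibroblasts, smooth muscle, and endothelium and pericytes separated the same females, as given above. The part of these lists in the Plcb4 difference was not tested.

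By list, the 17 genes of monoamine synthesis, transport and breakdown had 7 tested by limma, with Slc29a4, a low-affinity monoamine transporter, at 26.5 TPM and the monoamine oxidases Maob and Maoa at 20.5 and 16.2 TPM. Of the 5 acetylcholine genes the 2 tested were those for the breakdown enzymes, Ache at 39.0 TPM and Bche at 3.46 TPM. Bche had an adjusted p of 0.0996 in the authors' deposited table for females. The G protein subunit list was led by Gnas, the Gs subunit, at 879.2 TPM and Gnao1 at 419.2 TPM, with 17 of 18 genes tested. All 33 effectors and all 20 genes of desensitisation and RGS proteins were tested, the former led by the protein kinase A regulatory subunit gene Prkar1a at 462.9 TPM. Among the 10 nicotinic chaperones and toxin-like modulators, of which 8 were tested, Lynx1, a membrane protein that dampens nicotinic receptors, reached 168.6 TPM, above the level of every receptor gene here.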

How the data were processed

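RNA-seq of hippocampus from 12 mice was used, 3 per sex and extinction level. Libraries were made from polyadenylated RNA with a Kapa mRNA kit, per the labels' protocols. Tools named in the submitters' processing notes, with no roles stated, are StringTie 1.3.3b, DESeq2, HTSeq, Bowtie2 and TopHat2, beside the builds mm10 and GRCm38.p5. The authors deposited a table of TPM per sex, with 52636 genes. TPM keeps no depth, and abundant transcripts depress the values of the rest. Per the file headers, the authors also deposited a DESeq2 table per sex with the mean normalized count per gene (a signal with no value per library), the log2 fold change and its standard error, the test score, and a raw and an adjusted p-value. The tables do not state the direction of the log2 fold change. Against the TPM difference, low minus high, the sign was opposite for 101 of 101 called genes (males) and 133 of 134 (females), so the authors' values were multiplied by -1.

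Genes at a mean of at least 1 TPM in the libraries fitted were tested on log2(TPM + 1), a scale that shrinks changes of scarce genes, with limma 3.58.1 (R 4.3.3, trend, Benjamini-Hochberg at 0.05), per sex, and jointly over 12 libraries for the sexes' average and interaction. The code was tested on simulated data. Library columns were matched by mouse name, and replicate numbers follow record order and pair no mice. The sexes' tables were made separately, so no sex difference in level was tested, and means over 12 libraries join both tables. Relations used 100000 permutations, or all 720 orders within a sex (scipy 1.17.1). The symbol rule, the 11 marker lists and the 6 pathway lists were chosen with earlier results of these data known. Given in full were the 12 most abundant members, members called, the 3 smallest limma p per comparison, Htr2c and Chrna3. Pathway genes were named where called, and otherwise as the most abundant of their list or for their role, after their values were seen. Values of 1 member and 1 pathway gene are not reported here, though the counts include them. Positions are from GENCODE M21 and promoters from RefSeq. Settings varied were the pseudocount, the filter, the scaling, the variance trend, a joint fit and leaving out each library. The choroid plexus and thalamus covariates, the Chrna4 relation and the subtraction of the authors' changes, tested against a normal distribution and adjusted over 15642 genes, were chosen after seeing the data.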

Additional observations from a re-analysis of the deposited data

How the results depend on the processing

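No paired analysis was possible because the replicate numbers only follow the order of the records. Over 222 refits of 12 changes of named members, adjusted p ran from 0.335 to 1.00 (limma, Benjamini-Hochberg), and no refit called a member. Chrm4 in males ran between -0.52 and -0.39, Htr2c in males between -0.998 and -0.259, and Adra2c in females between -0.41 and -0.20. The direction turned in 2 cases, both with the thalamus covariate: Chrna4 in females (-0.157) and the interaction of Htr2c (0.279). That covariate was chosen after seeing the data and itself separated the female groups, so it cannot be parted from the extinction level there. The cause was not tested. At an adjusted p of 0.10 the authors' deposited table for males had 2 members called, Chrm4 and Chrnb4, of 40, against 0.863% of all genes. Members without overlap numbered 3 to 8 in males and 4 to 8 in females when each library was left out, which leaves fewer libraries to separate (in males 5 to 8 without high-extinction replicate 2 or 3 or low-extinction replicate 1 or 3, in females 8 without high-extinction replicate 1 or low-extinction replicate 2 or 3), and 2 in females after median centring. The shares of all genes without overlap were then 17.6% to 28.3% in males, 23.4% to 29.6% in females and 14.4% in females after centring, against 9.68% to 25.8%, 12.9% to 25.8% and 6.45% of the members. The relation of Htr2c with choroid plexus markers was 0.893 in males and 0.769 in females alone, where 6 libraries limit the test. That of Chrna4 with thalamus markers was -0.584 in males and 0.970 in females, where both separated the extinction levels. Among all genes limma called 0 to 10 under the alternatives. Median centring moved the median interaction of all genes from -0.09 to 0.02. Members reaching 1 TPM numbered 31 by the mean, by the median and in every library, and 35 reached a mean of 0.5 TPM. Counts per library were not analysed here.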
